A study of Gallus gallus with 51 samples.

Results

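Neomycin, an aminoglycoside, is toxic to hair cells, and the comparison described here covers the earliest recovery time, 0 hr, when chicken cochlear sensory epithelia were collected as the drug treatment of the cultures ended. It was measured on 17 of the 51 two-colour arrays of the series, chosen by the label that names neomycin-treated RNA against control RNA at the 0 hr timepoint. The 17 arrays came from 3 biological replicates, with 7 arrays for replicate 1, 6 for replicate 2 and 4 for replicate 3. The other 34 arrays, 16 at 24 hr and 18 at 48 hr of recovery, were used for the shared estimate of the spread and for values set beside those of 0 hr.

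The tissue was the sensory sheet of the auditory organ, made up of hair cells with supporting cells around them, from White Leghorn chicks in the second or the third week after hatching, held as organ cultures. Treated cultures had been kept in neomycin for a day, and each treated RNA shared an array with RNA of a control culture of the same time. According to the study's methods, RNA of several pooled epithelia made up each biological sample, and it went through more than one round of amplification before labelling. On the arrays lay long oligonucleotide probes made to human transcription factor genes, so every value here is a cross-species signal and every gene name is that of a human probe. In birds, unlike in mammals, supporting cells replace lost hair cells, and they do so partly by dividing and partly by changing directly into hair cells. Transcription factors such as ATOH1, POU4F3, SOX2 and the HES and HEY repressors of the Notch pathway are well known to set hair cell and supporting cell fates in this tissue.

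All values are log2 ratios of neomycin over control after normalization, so a value below 0 means that the probe gave less signal with neomycin RNA than with control RNA. Suffix 3 in the labels marks arrays with the neomycin RNA in Cy3 and suffix 5 those with it in Cy5, and the image headers named the same dye for the neomycin RNA on all 17 arrays. Each biological replicate gave 1 value per probe, averaged over its arrays so that both dye orientations counted equally. Of 1509 gene probes, 1282 were bright enough to be tested. A probe is called detected when its signal exceeded that of 95% of the spots of negative controls in at least 80% of the 34 array-channels of 0 hr (1 dye of 1 array), and 72 probes were detected, 5.62% of those tested. The labels do not say that the replicates were cultures raised apart, so the p-values measure only the spread between these samples, whose number limits the precision.

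The arrays of 0 hr differed in quality, and 1 of them ran against the other arrays of replicate 3. Spots at or below the local background, averaged over both dyes, made up between 38.9% and 84.7% of each replicate 1 array, between 0.439% and 17% of each replicate 2 array and at most 0.407% of each replicate 3 array. The correlation between 2 arrays of one replicate with the same suffix, across 1282 probes that are not independent replicates, had a median of 0.44 in replicate 1 and of 0.58 in replicate 2. Between opposite suffixes the median was -0.02 in replicate 1 and 0.46 in replicate 2. In replicate 3, suffix 5 array 2 correlated at -0.64 with the suffix 3 array and at -0.26 and -0.28 with the other suffix 5 arrays, while the remaining 3 arrays correlated at 0.30 to 0.46 with each other. On that array KIAA0173 gave a signal of 13796 scanner units with neomycin RNA and 1729 with control RNA, whereas on each of the other replicate 3 arrays control RNA gave the higher signal. The headers of that array name the dyes as its label does. Another array of the same replicate (suffix 5 array 3) has headers in which both RNAs are given as Cy5. The values below keep all arrays as labelled, and they are given again without suffix 5 array 2 of replicate 3 (called the opposed array) where a result rests on it.

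**Figure D1:**
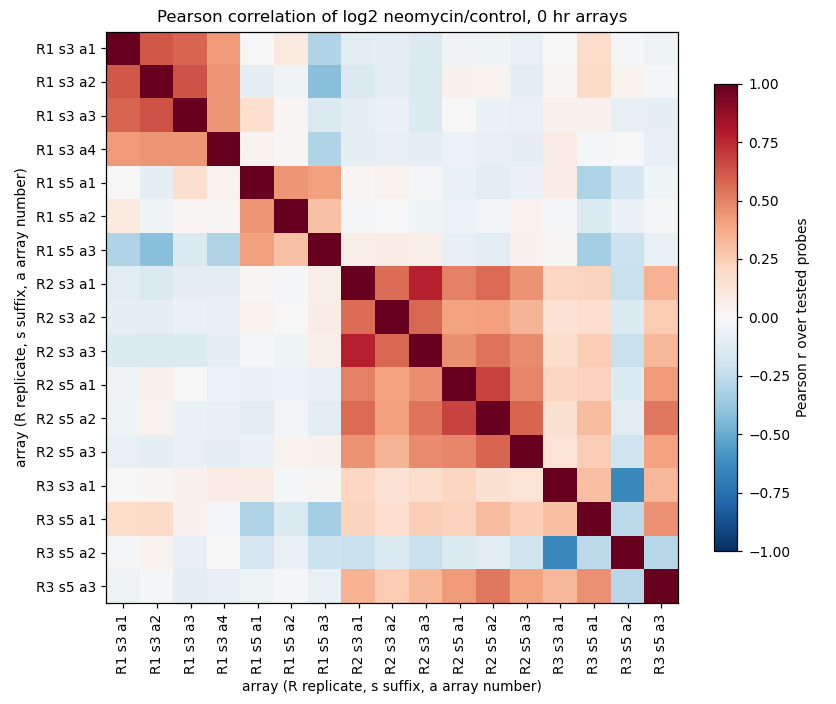
Pearson correlation of the log2 neomycin/control ratios of each pair of 0 hr arrays over 1282 tested probes, on a colour scale from -1 (blue) to 1 (red), with arrays named on both axes by replicate (R), suffix (s) and array number (a). The replicate 2 arrays form a block of positive correlations with one another, the replicate 1 arrays correlate mainly within a suffix, and the opposed array (R3 s5 a2) is negative against the rest of its replicate, down to -0.64.

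No probe passed an adjusted p under 0.05 for neomycin against control at 0 hr (0 of 1282, 0% of the probes tested). The test was limma's moderated test over the 9 biological replicates of the series with Benjamini-Hochberg adjustment, and the smallest adjusted p was 0.9997. At an unadjusted p under 0.05 there were 38 probes, 2.96% of those tested, of which 12 were higher (0.936%) and 26 lower (2.03%) with neomycin. Without the opposed array the unadjusted count was 60 (4.68%), 17 higher and 43 lower, and with that array's sign turned it was 61, 16 higher and 45 lower. None of these alternatives gave an adjusted p under 0.05, the smallest being 0.997 without the array and 0.954 with it turned. The mean over replicates was past 1.5-fold lower for 30 probes (2.34%) and past 1.5-fold higher for 2 (0.156%).

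The 5 probes with the lowest means were all detected, and of the 30 past 1.5-fold lower by mean 18 were detected and 12 were not. Among the 72 detected probes 62 had a mean below 0, against 51.9% of all tested probes, and their median log2 ratio was -0.31, against -0.01 over all tested probes and 0.00 over the 1210 that were not detected. The 3 replicates did not share this. Replicate 1 had a median of 0.01 over the detected probes, replicate 2 of -0.53 and replicate 3 of -0.37, or -0.56 without the opposed array. Replicates 2 and 3 were both below 0 for 43 of the 72 detected probes (59.7%), whereas this held for 28.2% of all tested probes, and 11 of them were above 0 in both. Past 1.5-fold lower in both replicates were 21 detected probes and 8 of the 1210 others. In replicate 1, by contrast, 40 of the 72 detected probes (55.6%) lay within 0.1 of 0, against 35.0% of all tested probes. In replicates 2 and 3 the share of detected probes within 0.1 of 0 was 19.4% and 13.9%. These counts and medians of the detected probes include PRDM13 and AF5Q31, whose saturated signals are described below. Detection pooled the channels of both RNAs, so a probe low with neomycin could pass through its control channels, as GBX2 and SIX4 did. How many of the 72 passed in this way was not counted. The lean of the detected probes below 0 is therefore no independent evidence of a lower level. The averages of the opposite dye orientations of replicate 1 correlated at -0.14 over the tested probes. Detection was set by the share of channels above the negative controls and not by brightness as such. When all tested probes were ranked by brightness into 10 groups, the 129 brightest had a median log2 ratio of -0.17. Of these 129, 52 were below 0 and 29 above 0 in both replicates 2 and 3. The next brightest group had a median of -0.07, and the medians of the dimmer groups lay between -0.03 and 0.03. The part that signal strength has in the values of the detected probes was not tested.

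**Figure D2:**
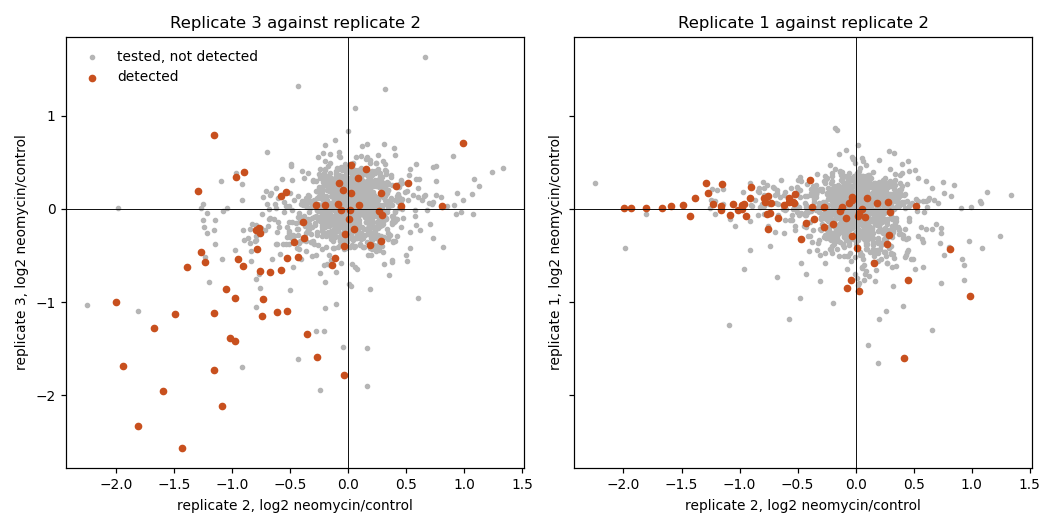
Log2 neomycin/control at 0 hr of replicate 3 (left) and of replicate 1 (right) against replicate 2, with 1 point per tested probe and the 72 detected probes in orange. On the left the detected probes extend into the lower left, where 43 of them lie, while on the right 40 of them lie within 0.1 of the horizontal line at 0 and 7 lie past 1.5-fold below it.

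KIAA0173 (TTLL4 in current use, a ligase that adds glutamate to tubulin and other proteins) had the lowest mean of all tested probes. Replicate 1 gave a log2 ratio of 0.01, replicate 2 of -1.81 and replicate 3 of -2.33. Replicates 2 and 3 were far below 0 and replicate 1 was at 0. The mean was -1.37 ± 1.23 (SD, n = 3), 2.59-fold lower, and it did not pass. Its 95% interval in the limma fit ran from -2.48 to -0.27, with an unadjusted p of 0.019 and an adjusted p of 1.00. Before normalization its signal on the 6 arrays of replicate 2 lay between 28866 and 49765 scanner units with control RNA and between 3135 and 5718 with neomycin RNA, with no overlap. The neomycin channel of these arrays was dimmer over the whole array, so the raw ranges overstate the difference of this probe. On the 7 arrays of replicate 1 the ranges were 1702 to 22107 and 2202 to 22981, and neomycin was the lower of the pair on 3 of 7 arrays. Without the opposed array, replicate 3 stood at -3.36 and the mean at -1.72 ± 1.69.

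MEF2B, a MADS-box factor best known from muscle and lymphocytes, followed the same course. Its values were -0.07 in replicate 1, -1.43 in replicate 2 and -2.57 in replicate 3, with a mean of -1.36 ± 1.25 (SD, n = 3). It lay below 0 on all 6 arrays of replicate 2, between -2.38 and -0.35. On the other 3 arrays of replicate 3 it lay between -4.42 and -2.14, and on the opposed array at 4.1. CITED1, a co-activator that binds CBP and p300, was at -0.06, -1.08 and -2.11 in replicates 1, 2 and 3, and at -3.36 in replicate 3 without the opposed array. On all 6 arrays of replicate 2 it lay between -1.39 and -0.89. For both probes the sign was shared by the 3 replicates and by both dye orientations, although the replicate 1 values were within 0.1 of 0.

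PREB, which binds the prolactin promoter and also serves in vesicle traffic from the endoplasmic reticulum, had values of 0.03, -1.59 and -1.95 in replicates 1, 2 and 3 and a mean of -1.17 ± 1.06 (SD, n = 3). Its 6 arrays of replicate 2 agreed closely, from -1.86 to -1.40. ZNF10, a KRAB zinc finger repressor, was at 0.01, -1.94 and -1.69, or -2.58 in replicate 3 without the opposed array. In replicate 1 its signal was close to the top of the scanner range, with medians of 54711 scanner units for neomycin and 53495 for control RNA. It reached saturation in the control channel on 4 of 17 arrays and in the neomycin channel on 3. On 1 array of replicate 1 both channels were saturated. On 1 of the 3 other replicate 3 arrays ZNF10 stood above 0, at 0.61. The adjusted p was 1.00 for PREB, CITED1, MEF2B and ZNF10. For PRDM13, a histone methyltransferase-like factor of the nervous system, and AF5Q31, a subunit of the super elongation complex, the ratios were not measured. Each was saturated in the control channel on 16 of 17 arrays and in the neomycin channel on 9, among them both channels of all 7 arrays of replicate 1.

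**Figure D3:**
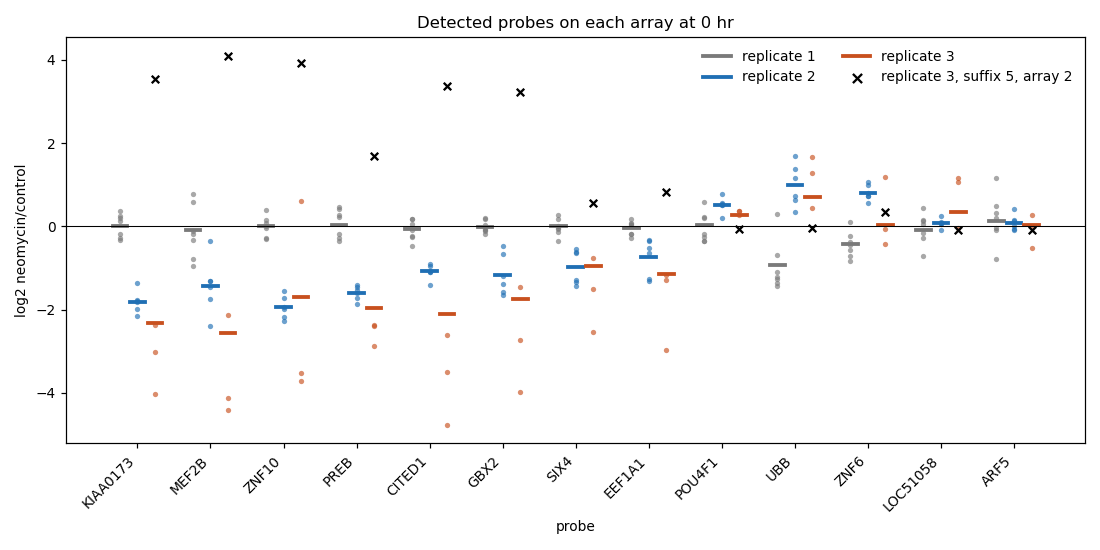
Log2 neomycin/control of 13 detected probes on each 0 hr array (points) with the value of each replicate (short lines), replicate 1 in grey, 2 in blue and 3 in orange. Crosses mark the opposed array of replicate 3, which stands at 3.53 for KIAA0173, while the blue points of the 8 probes on the left all lie below 0.

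GBX2 and SIX4, homeobox factors with roles in the otic placode, were the detected members of the otic epithelium list and had the same shape. GBX2 was at -0.01, -1.16 and -1.73 in replicates 1, 2 and 3, or -2.73 in replicate 3 without the opposed array, and SIX4 at 0.00, -0.98 and -0.96. Each was below 0 on all 6 arrays of replicate 2. With control RNA both were above the negative controls in 100% of the channels, and with neomycin RNA in 76.5%. Detection pooled the channels of both RNAs, and by the neomycin channels alone neither probe would have reached its limit. These shares come from the same signals as the ratios and are no separate evidence of a change. EEF1A1, the elongation factor that brings aminoacyl-tRNA to the ribosome, is not a transcription factor. It was still among the 6 lower probes with one sign in each replicate value and in each suffix mean over replicates. In replicate 1 it was below 0 on 3 of 7 arrays. It stood at -0.05, -0.74 and -1.15, with a mean of -0.64 ± 0.56 (SD, n = 3).

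Other detected probes below -0.5 in both replicates 2 and 3 and near 0 in replicate 1 included TRAF6, an adaptor of NF-kappaB signalling (0.04, -1.49 and -1.13), and CYLD, a deubiquitinase that limits the same pathway (0.11, -1.39 and -0.62). PAF65A, a subunit of histone acetyltransferase complexes, was at 0.03, -1.16 and -1.12. Its replicate 1 value averaged opposed dye orientations, between 0.05 and 0.87 with suffix 3 and between -0.72 and 0.13 with suffix 5. DEAF1, FOXP1, IRF2 and MAX, factors of 4 different families, lay between -0.94 and -0.67 in replicate 2 and between -0.97 and -0.54 in replicate 3. In replicate 1 FOXP1 was likewise opposed, between 0.10 and 1.08 with suffix 3 and between -0.76 and 0.05 with suffix 5. Without the opposed array the replicate 3 values of these 7 probes lay between -1.88 and -0.78. These genes were chosen after their values were seen, and their adjusted p was 1.00.

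Few detected probes were higher. POU4F1, a POU factor of sensory neurons closely related to the hair cell factor POU4F3, had the highest mean at 0.28 ± 0.25 (SD, n = 3). Its values were 0.03, 0.52 and 0.28 in replicates 1, 2 and 3, and it was above 0 on all 6 arrays of replicate 2 and on 3 of 4 arrays of replicate 3. UBB, a ubiquitin precursor gene, was split: -0.93 in replicate 1, 0.99 in replicate 2 and 0.71 in replicate 3. ID1, an inhibitor of basic helix-loop-helix factors, was split in the same way at -1.60, 0.42 and 0.24. Both had 6 of 7 replicate 1 arrays below 0. ZNF6 (-0.43, 0.81 and 0.03), LOC51058 (-0.08, 0.08 and 0.34) and ARF5 (0.12, 0.09 and 0.04), a small GTPase of the Golgi, completed the 5 highest detected probes, and all 5 had an adjusted p of 1.00. Loess sets the bulk of each array to 0, and in replicate 2 the neomycin channel was the dimmer one over the whole array. POU4F1 gave less raw signal with neomycin RNA than with control RNA on all 6 arrays although its normalized ratio was above 0.

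Probes with one sign in all 3 replicates and in both dye orientations were looked at next. Of 1282 tested probes, 298 (23.2%) had one sign in all replicates, 151 above 0 (11.8%) and 147 below (11.5%), and 225 (17.6%) also in both suffixes. Signs unrelated between replicates would give a share of this size, so the count is no evidence of a shared change. NOT56L, a mannosyltransferase of the endoplasmic reticulum, had the smallest p among the higher ones. Its values were 0.34, 0.54 and 0.43 in replicates 1, 2 and 3, with a mean of 0.43 ± 0.10 (SD, n = 3) and an unadjusted p of 0.006. PAX9, a paired box factor of pharyngeal pouches, was at 0.17, 0.76 and 0.46. TIEG, a Krüppel-like factor induced by TGF-beta, stood at 0.15, 1.34 and 0.43, and on the arrays of replicate 2 it ranged from 0.75 to 1.97. EIF4A1, an RNA helicase of translation initiation, had values of 0.19, 1.13 and 0.25. Those of TCIRG1, a proton pump subunit, were 0.52, 0.45 and 0.27, and those of CORO1A, an actin-binding protein of leukocytes, 0.29, 0.76 and 0.30. Within a replicate the dye orientations could differ. In replicate 3 NOT56L stood at 1.12 with suffix 3 and -0.27 with suffix 5, and in replicate 2 EIF4A1 at 2.12 and 0.14. None of these 6 was a detected probe, NOT56L being above the negative controls in 5.88% of the channels and TCIRG1 in 47.1%. All 6 had an adjusted p of 1.00.

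Lower by the same rule, beside MEF2B, CITED1 and EEF1A1, were PAX1, TRIP15 and ZNF76. PAX1, a paired box factor of the axial skeleton, was at -0.96, -0.48 and -0.63 in replicates 1, 2 and 3, the probe among these with the lowest replicate 1 value, and without the opposed array at -1.05 in replicate 3. It was below 0 on 6 of 7, 6 of 6 and 3 of 4 arrays. TRIP15 (COPS2, a subunit of the COP9 signalosome, which removes NEDD8 from ubiquitin ligases) was at -0.73, -0.68 and -0.11. Without the opposed array its replicate 3 value was 0.05, so its common sign rests on that array. ZNF76, a zinc finger activator of RNA polymerase III genes, was at -0.78, -0.31 and -0.50. The adjusted p was 1.00 for all of them.

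Replicates 2 and 3 resembled each other more than either resembled replicate 1. Over the tested probes the correlation of replicate values was 0.37 between replicates 2 and 3, -0.10 between 1 and 2 and -0.12 between 1 and 3. Without the opposed array they were 0.41, -0.10 and -0.08. The sign of the values below 0 depended in part on the scaling. In the submitters' table replicates 1 and 2 correlated at 0.16, 1 and 3 at 0.10 and 2 and 3 at 0.53. With median centring replicates 1 and 2 correlated at 0.10, while 1 and 3 stayed below 0, at -0.08. Within replicate 2 the averages of the opposite dye orientations correlated at 0.63, within replicate 1 at -0.14, and within replicate 3 at 0.01, or 0.37 without the opposed array. These are descriptions across probes, which share arrays and background.

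Probes picked in one replicate were then read in the others, which the choice had not used. In replicate 2, 82 probes were below 0 on all 6 arrays and past 1.5-fold lower, and in replicate 3, 64 of them (78.0%) were below 0, against 48.5% of all tested probes, with a median of -0.32. In replicate 1, 28 of the 82 (34.1%) were below 0, against 48.4% of all. The 33 probes picked as higher in replicate 2 were above 0 for 24 (72.7%) in replicate 3, against 51.5% of all, and for 14 (42.4%) in replicate 1, against 51.6%. In the opposite direction, the 3 arrays of replicate 3 without the opposed one gave 88 lower probes, 71 of which (80.7%) were below 0 in replicate 2, against 50.9% of all, and 20 higher ones, 13 of which (65%) were above 0. With the opposed array kept, 9 lower and 4 higher probes could be picked in replicate 3, and 5 (55.6%) and 2 of them kept the direction in replicate 2. Picks from replicate 1 did not carry over: of 12 lower probes 2 (16.7%) were below 0 in replicate 2 and 4 (33.3%) in replicate 3, and of 4 higher ones 1 was above 0 in replicate 2 and 3 in replicate 3.

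On all 9 arrays that make up replicate 2 and the rest of replicate 3, 76 probes (5.93%) were below 0 and 27 (2.11%) above. The lower group held 29 of the 72 detected probes. Replicate 1 was below 0 for 27 of the 76, with a median of 0.03. Beside the probes named above, it held 2 that were not detected at 0 hr and that stood out by size once the values were seen. They were SHH, the secreted ligand of the hedgehog pathway (-0.05, -1.81 and -1.10), and ATP7B, a copper transporter (0.28, -2.25 and -1.03). Without the opposed array their replicate 3 values were -1.75 and -1.73. BAPX1, a homeobox factor of the skeleton, and HLF, a basic leucine zipper factor, were among the 27 higher ones, at 0.01, 0.91 and 0.57 and at -0.29, 1.25 and 0.39.

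Marker lists were read next. Bulk RNA was measured, so fewer cells of a type and less RNA per cell cannot be told apart. The hair cell list had 6 tested members, none of which passed and all of which had an adjusted p of 1.00. ATOH1, the factor that starts hair cell formation, was at 0.02, -0.10 and -0.05 in replicates 1, 2 and 3, and POU4F3, needed for hair cell survival, at 0.54, -0.01 and -0.07. GFI1, a target of POU4F3, was at -0.14, -0.12 and 0.23, and BARHL1 at 0.06, 0.01 and 0.00. POU4F2 had the lowest mean, at 0.10, -1.25 and -0.12. The median of the list was 0.01, against -0.01 over all tested probes. Apart from POU4F1, these probes were above the negative controls in 8.82% to 23.5% of the channels, so the labelled tissue was poorly marked by them.

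Of the supporting cell and progenitor list 8 of 11 members were tested and 1 was detected, ID1. SOX2, a factor of sensory progenitors, was at 0.08, -0.14 and 0.20. Of the Notch targets, HEY1 was at -0.51, -0.07 and 0.00, HEY2 at -0.42, 0.29 and 0.34, and HEYL at -0.17, -0.21 and -1.31, the last with the lowest mean of the list (-0.56 ± 0.65, SD, n = 3). PROX1 was at -0.16, 0.21 and -0.10, SOX10 at -0.46, 0.25 and -0.14, and ID3 at -0.33, -0.22 and -0.02. In replicate 1 the median of the list was -0.37 with 7 of 8 members below 0, and in replicates 2 and 3 it was 0.07 and -0.01. No member passed.

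The otic epithelium list had 8 tested members of 13, with means from -0.97 for GBX2 to 0.38 for TBX1 (0.26, 0.85 and 0.03). In replicate 2 TBX1 was at 3.29, 1.16 and 0.74 on the suffix 3 arrays and between -0.04 and -0.01 on the suffix 5 arrays. It was above the negative controls in 2.94% of the channels. PAX8, an early otic placode factor, was at 0.24, 0.23 and 0.41 and kept one sign in all replicates. In replicate 3 PAX8 stood at 1.18 on the suffix 3 array and between -0.74 and 0.12 on the suffix 5 arrays. GATA3, a zinc finger factor of the otic vesicle, was at 0.16, 0.43 and -0.29. DLX6 (0.20, -0.03 and -0.38) and HMX2 (0.12, -0.02 and 0.30) stood near 0. The otic neuron factors NEUROD1 (0.08, -0.07 and -0.39) and NEUROG1 (-0.25, 0.32 and 0.20) went in no common direction. No member of either list passed.

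For cells other than those of the epithelium, 9 mesenchyme or stroma factors and 9 blood cell factors were tested. None of them was detected and none passed. The mesenchyme list had a median of 0.02, with PMX1 lowest at 0.02, -0.43 and -1.61 and FOXC2 highest at 0.07, 0.40 and 0.65. TCF21 was at 0.19, -0.83 and -0.45, POU3F4 at 0.39, -0.13 and -0.33, TBX18 at -0.24, -0.17 and 0.46, and TBX15, MEOX1, MEOX2 and FOXC1 had means between -0.02 and 0.14. The blood list had a median of 0.03 and means from -0.27 for GFI1B to 0.14 for ZNFN1A3, and its defining factors GATA1 and TAL1 were at 0.13, -0.04 and 0.02 and at 0.07, 0.14 and 0.09. SPI1, SPIB, ZNFN1A1, LYL1 and MYB lay between -0.10 and 0.04 by mean. Their part in the values of other probes was not tested.

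Immediate-early factors, which many cells induce within minutes of injury, did not shift together. Their median was -0.02 over 14 tested members, and 4 were above 0 and 4 below 0 in both replicates 2 and 3. JUNB, the detected member, was at 0.06, -0.53 and -0.52. FOS was at -0.30, 0.03 and 0.38 and was above the negative controls in none of the channels, while JUN, above them in 67.6%, was at -0.07, -0.49 and 0.48. FOSB had the lowest mean (0.15, -0.24 and -1.95) and EGR4 the highest (0.15, 0.06 and 1.08), each carried by replicate 3. For EGR4 that value came from 1 array, the suffix 3 array at 2.16, while the suffix 5 arrays were at -0.26, 0.06 and 0.18. FOSB was at 3.80 on the opposed array and between -3.93 and -1.45 on the other 3. EGR1 was at 0.00, 0.23 and 0.00, MYC at 0.00, -0.62 and 0.22, NR4A1 at -0.06, -0.84 and -0.21, and ATF3, FOSL1, FOSL2, EGR3, NR4A2 and KLF4 had means from -0.15 to 0.11. None passed.

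Factor families were defined by the names of the probes. All family medians of the mean lay within 0.15 of 0, while the median of all tested probes was -0.01. Few members were detected, from none of the HOX, PAX, SOX, GATA and circadian genes to 6 of 59 basic helix-loop-helix factors. Of the 112 zinc finger genes 4 were detected. Most family values are thus those of probes that were not detected. The largest family, 112 tested zinc finger genes named ZNF, ZFP or ZF, had a median of 0.03 and replicate medians of 0.02, 0.04 and 0.03. It had 26 members above 0 in all 3 replicates (23.2%, against 11.8% of all tested probes). Below 0 in all 3 were 18 members (16.1%, against 11.5%), so both shares were above those of all tested probes. Its extremes were ZNF90 at 0.28, 0.26 and 0.58 and ZNF10, and 1 member reached an unadjusted p under 0.05. The 33 HOX cluster genes had a median of 0.01 with HOXC11 highest (0.02, 0.62 and 0.33) and HOXD8 lowest (-0.44, -0.91 and 0.26). Among 66 other homeobox genes, median -0.03, the ends were BAPX1 and GBX2.

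**Figure D4:**
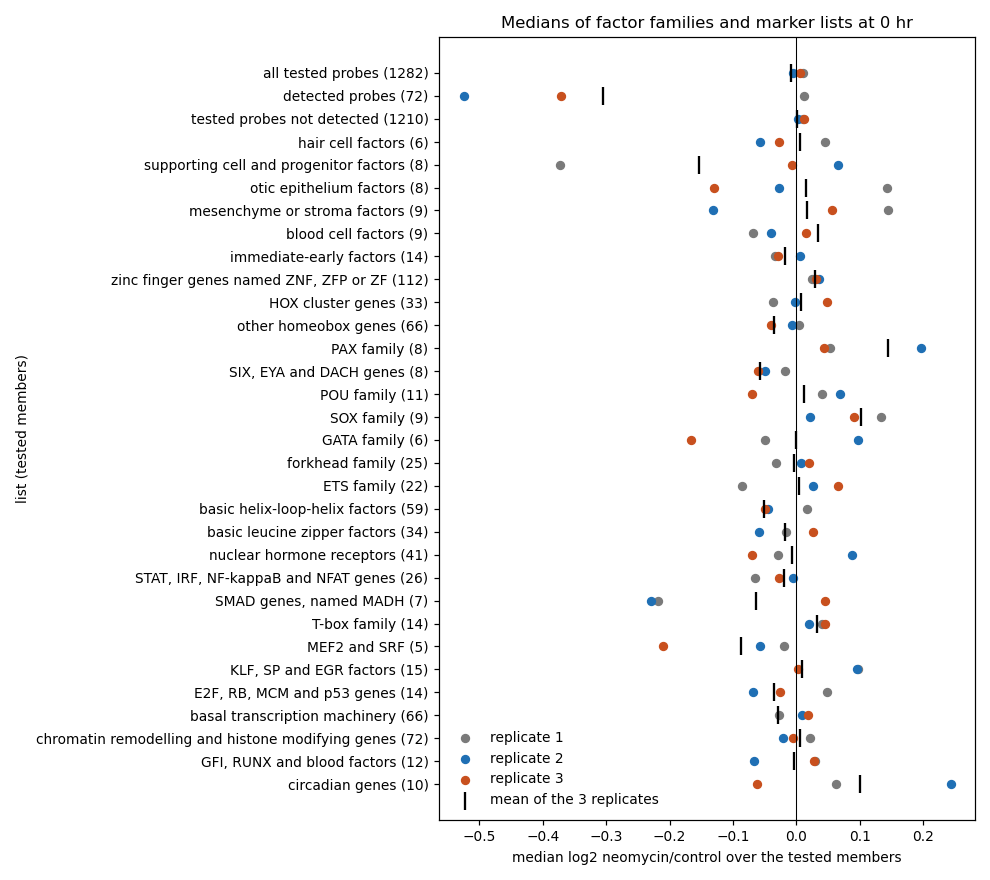
Median log2 neomycin/control at 0 hr over the tested members of each factor family and marker list with at least 5 tested members, whose number stands in brackets, for each replicate (grey, blue and orange dots) and for the members' means over the replicates (black bars). The detected probes, at -0.53 in replicate 2 and -0.37 in replicate 3, lie apart from the families, whose bars stay within 0.16 of 0.

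The PAX family, paired box factors of early organ development, had a median of 0.14 over 8 tested members, between 0.002 and 0.302 under other processing, with PAX9 at the top and PAX1 at the bottom. Of the 8, 4 were above 0 in all replicates and 2 below, against 11.8% and 11.5% of all tested probes. Sine oculis homeobox (SIX4 among them), EYA and DACH genes, partners of PAX genes in the otic placode, had a median of -0.06, from EYA3 (0.20, 0.02 and 0.12) to SIX4. SOX genes had a median of 0.10 with 4 of 9 above 0 in all replicates (11.8% of all tested probes), from SOX11 (-0.06, -0.67 and -0.09) to SOX14 (0.41, 0.03 and 0.09). POU genes ranged from POU4F2 to POU4F1 around a median of 0.01, and GATA genes from GATA4 (-0.08, -0.16 and -0.50) to TRPS1 (-0.16, 0.16 and 0.38).

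Of the 5 MADS-box genes tested, MEF2B was the lowest and MEF2C, at -0.05, -0.06 and 0.10, the highest, and the median was -0.09. The KLF, SP and EGR factors, which bind GC boxes, held 3 of the 12 higher probes at an unadjusted p under 0.05 among 15 tested members (0.936% of all tested probes were such calls), with TIEG at the top and KLF5 (0.13, -0.65 and -0.54) at the bottom. Basic helix-loop-helix factors, 59 of them, had a median of -0.05 and ran from MYF5 (0.28, -0.91 and -1.69), a muscle determination factor, to TFE3 (0.34, 0.25 and 0.28). Basic leucine zipper factors, median -0.02, ran from FOSB to HLF. Nuclear hormone receptors had 9 of 41 members below 0 in all replicates (22.0%, against 11.5% of all) and none above, and their median was -0.01, from NR4A1 to RXRB (-0.27, 0.31 and 0.69).

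SMAD genes, transducers of TGF-beta and BMP signals, had a median of -0.06, with replicate medians of -0.22, -0.23 and 0.04. MADH2 was the lowest, at -1.46, 0.11 and 0.36, and rested on replicate 1, and MADH7 the highest, at -0.21, 0.13 and 0.04. Forkhead genes ran from FOXH1 (-0.09, -1.09 and -0.54), a partner of SMAD2, to FOXC2, ETS genes from ETV1 (-0.58, -0.47 and 0.10) to ELF3 (0.00, 0.29 and 0.19), and T-box genes from TBX20 (-0.17, -0.11 and -0.17) to TBX1. STAT, IRF, NF-kappaB and NFAT genes ran from IRF2 (-0.07, -0.94 and -0.54) to NFATC1 (0.55, -0.03 and 0.45). The medians of these families lay between -0.02 and 0.03.

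The medians of genes of cell division and of transcription itself were as close to 0, with few members detected. None of the E2F, RB, MCM and p53 genes and 5 of the 66 basal transcription probes were detected. The 14 E2F, RB, MCM and p53 genes had a median of -0.04, from MCM7 (0.19, -0.29 and -0.37), part of the replication helicase, to E2F5 (0.28, 0.16 and 0.70). The basal transcription machinery, 66 probes, had a median of -0.03 and ran from ELL (-0.42, -1.98 and 0.01), an elongation factor of RNA polymerase II, to CRSP9 (0.20, 0.37 and 0.35). Chromatin remodelling and histone modifying genes, 72 of them, had a median of 0.01, with the saturated PRDM13 as the lowest value and MTA1L1 as the highest (0.08, 0.32 and 0.48). Circadian genes had a median of 0.10, from NR1D2 (-1.10, 0.26 and -0.07) to CLOCK (0.05, 0.13 and 0.67). TCF, LEF and catenin genes ran from TCF7L2 (-0.39, 0.09 and 0.05) to TCF7 (0.16, 0.06 and -0.02), and the GFI, RUNX and blood group from GFI1B to BCL11A (0.64, -0.09 and 0.05). No family had a member with an adjusted p under 0.05.

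Lists that the study drew from results that include these samples are no independent evidence of a direction. Its core list of 6 genes had a median of -0.43, with replicate medians of -0.05, -0.38 and -0.03. Its lowest members were KIAA0173, LOC57209 (-0.09, 0.16 and -1.90) and TRIP15. The 7 genes it named as alike in cochlea and utricle at this time, FOXJ3 being the probe KIAA1041, had a median of -0.51, with replicate medians of -0.07, -0.68 and -0.11 and GTF2F1, a subunit of TFIIF, lowest at -0.18, -0.76 and -0.85. Its TGF-beta, Notch, WNT, insulin and IGF, NF-kappaB, AP-1, PAX with EYA and sine oculis homeobox, and cell cycle lists had medians from -0.19 to -0.01. Among them were CTNNB1, the WNT effector (-0.76, 0.93 and -0.05), TCF3 (-0.40, -0.20 and 0.07), LDOC1 (0.12, -0.79 and -0.23), NFKB2 (-0.04, 0.29 and -0.07), ELK1 (-0.29, -0.39 and 0.08), ATF7 (0.86, -0.18 and -0.09), DRPLA (0.26, -0.42 and -0.36) and CUTL1 (0.09, 0.61 and 0.13). No member passed.

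Values at 0 hr were last set against those of 24 and 48 hr, which have control RNA of their own. The difference between 0 hr and the mean of the later times reached an adjusted p under 0.05 for no probe (0 of 1282, 0%, limma), with a smallest adjusted p of 0.998, and 13 probes (1.01%) had an unadjusted p under 0.05. Those with the smallest p were higher at 0 hr for PAX9 (means of 0.46, -0.03 and 0.03 at 0, 24 and 48 hr), CORO1A (0.45, 0.09 and -0.39) and SP2, a GC-box factor (0.32, 0.11 and -0.25). They were lower at 0 hr for PIG7, a p53-induced gene (-0.51, 0.26 and -0.03), HOXD8 (-0.36, 0.51 and 0.39) and HCNGP (-0.78, 0.08 and -0.01). All 6 had an adjusted p of 1.00 for the difference.

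The detected probes had a median of -0.45 at 24 hr and of -0.09 at 48 hr, beside -0.31 at 0 hr. KIAA0173 was at -0.21 at 24 hr and -0.22 at 48 hr, and PREB at -0.15 and -0.12. ZNF10 was at -1.97 and -0.33, GBX2 at -1.30 and -0.37, and SIX4 at -1.11 and -0.56. MEF2B stood at -0.76 and -0.02 and CITED1 at -0.56 and -0.28. Whether any of these differed between times was tested only in the contrast above, which none of them passed.

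**Figure D5:**
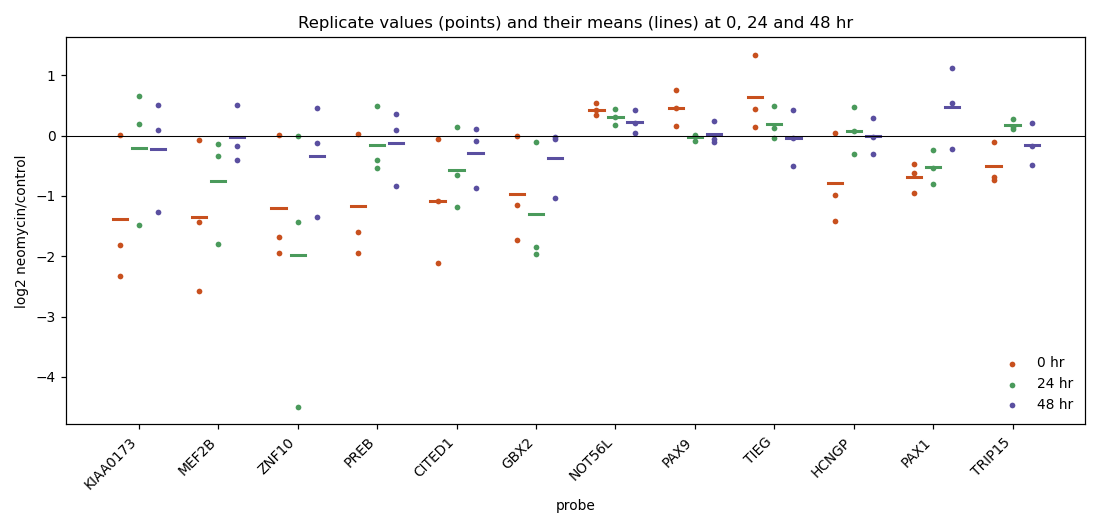
Log2 neomycin/control of 12 named probes in each of 3 replicates (points) with the mean (line) at 0 hr (orange), 24 hr (green) and 48 hr (purple). KIAA0173 and PREB have their lowest means at 0 hr, at -1.37 and -1.17, while ZNF10 and GBX2 are lower at 24 hr, and the points of most probes overlap between times.

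The outcome depended on how single arrays were weighted. When all 51 arrays were fitted one by one and those of one biological replicate were treated as a random block, no probe passed at 0 hr. When limma in addition estimated a weight for each array, 52 probes (4.06%) passed at an adjusted p under 0.05, 9 higher and 43 lower. The weights of the replicate 2 arrays lay between 1.66 and 2.89, those of replicate 1 between 0.408 and 1.99 and those of replicate 3 between 0.496 and 0.871. All 52 had the sign of the call in replicate 2, 43 had it in replicate 3 and 25 in replicate 1, with 19 in all 3. Among them were PREB (adjusted p = 0.00178), KIAA0173 and TRIP15 (each adjusted p = 0.00814), TIEG (adjusted p = 0.0222), MEF2B (adjusted p = 0.0305), PAX9 and NOT56L (each adjusted p = 0.0392). These weights are estimated from the same values that are then tested, and that fit counts arrays of one RNA pair as separate observations with a common correlation.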

How the data were processed

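RNA of neomycin-treated and control chicken cochlear epithelia was compared on 51 two-colour arrays, 17 of them at 0 hr, each with 1536 probes in 2 spots. Per the file headers the authors' ImaGene files hold spot and background intensity for each dye, not normalized. The deposited table holds log2 ratios of neomycin over control that equal the scanner ratio within 1e-06 on all 51 arrays, and it served as an alternative. Builds and aligners do not apply to these arrays.

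Signal means were background-corrected (normexp, offset 50) and then loess-normalized array by array with limma 3.58.1 in R 4.3.3. Probes were averaged over 2 spots, then over the arrays of a suffix, then over the suffixes. Left out were 19 probes taken as negative controls by their names, 8 mismatch-named probes and the dimmest 15% of gene probes (227). Group means were fitted with lmFit and eBayes over 9 biological replicates, 3 per time, with Benjamini-Hochberg adjustment over 1282 probes. The fit was tested on simulated data. Figures were drawn with matplotlib 3.10.9.

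Named genes were the 6 higher and 6 lower probes with the smallest p among those of one sign in every replicate and suffix, the 5 highest and 5 lowest detected probes, all tested list members (1 of them is not reported here), 3 in each direction for the contrast with later times, and the ends of each family. Members, lists, families and rules were chosen with earlier results of these data known. Of 1509 gene probes, 756 bear a chicken symbol of the RefSeq annotation of GRCg7b, 63 a synonym and 690 neither, and names stay as on the array. Probe sequences were not used here.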

Additional observations from a re-analysis of the deposited data

Results flagged for a closer look

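Arrays within a replicate and named probes on those arrays were searched for values far from the rest, in 9 groups of an array measure and 60 groups of probe values. Chance marks about 1 group in 20 this way. The correlations of suffix 5 array 3 of replicate 1 with the remaining 6 arrays there averaged -0.0774. PREB stood at 1.69 on the opposed array of replicate 3, while the other 3 arrays lay between -2.88 and -2.37. CORO1A was at -0.505 on suffix 5 array 1 of replicate 3, PAX9 at -1.48 on suffix 5 array 1 of replicate 1, where the other 6 arrays were above 0, and ZNF76 at -1.62 on suffix 5 array 2 of replicate 2.

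For 4 named probes all replicates at 0 hr had one sign and all replicates at a later time the other, in 48 looks, and that difference was not tested for the single time. CORO1A had a mean of 0.448 at 0 hr and -0.39 at 48 hr, and SP2 of 0.325 and -0.25. EIF4A1 had a mean of 0.521 at 0 hr and -0.11 at 24 hr, and TRIP15 of -0.506 and 0.17. CORO1A, EIF4A1 and TRIP15 had been named for one sign at 0 hr. CORO1A and SP2 had been named for a small p against the later times. Part of what was looked for was thus fixed by the choice. Without the opposed array TRIP15 stood at 0.05 in replicate 3 and had no common sign at 0 hr.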

How the results depend on the processing

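The count of 0 probes at an adjusted p under 0.05 at 0 hr held in all alternatives but 2: it was 52 with single arrays, a replicate random block and array weights, and 8 with single arrays and the day in the image headers as a random block. The unadjusted count of 38 was 69 with median centring, 96 with the submitters' table, 66 with scaling between arrays, 60 with the 0 hr replicates alone, 58, 163 and 130 in the single-array fits (random replicate block, with weights, day) and 6 of the 72 detected probes. It was 60 without the opposed array, 61 with it turned, and 106 without that array and replicate 1. Leaving out each replicate gave 24 to 74 (24 without replicate 3, 74 without replicate 1). The methods' t-test with its fold and trend limits gave 14 on replicate values and 26 over single arrays, and 0 after Benjamini-Hochberg adjustment in both. The 3 alternatives on the opposed array were chosen after seeing the data.

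The contrast with later times gave 0 probes throughout, except 2 with array weights. With the replicate number as a block it gave 0 as well, and the unadjusted count at 0 hr was 35 with that replicate block. Same-numbered replicates of different times correlated at -0.16 to 0.06 in their deviations, and differently numbered ones at -0.11 to 0.20. So few replicates cannot settle whether the numbers mark a pairing. No dye bias passed, apart from 2 probes without replicate 3, which spans 0 to 2 over the replicates left out. At 50% and 100% of array-channels 213 and 11 probes were detected. The share of probes with one sign in all replicates, 23.2%, was 30% with median centring, 29.8% without background correction, 39.1% in the submitters' table, 20.4% on suffix 5 arrays and 26.1% with the opposed array turned.

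Of the 20 probes named by size or p, 15 kept their direction in all alternatives run. Those named for one sign in every replicate and suffix mean could not turn when a replicate or a suffix was left out. Their stability in those alternatives was fixed by the choice. The probes that turned were the 5 highest detected ones, which had been named by size alone. ARF5 turned to -0.064 with median centring, -0.19 in the submitters' table and -0.13 on suffix 5 arrays, LOC51058 to -0.0145 with median centring and -0.25 in that table, POU4F1 to -0.14 there, UBB to -0.15 there and -0.11 without replicate 2, and ZNF6 to -0.13 there, -0.0416 on suffix 3 arrays and -0.20 without replicate 2. Over the replicates left out in turn, UBB ranged from -0.11 to 0.85 and ZNF6 from -0.20 to 0.42, highest without replicate 1. The cause was not tested. The median of the detected probes ranged from -0.516 to -0.206 and that of the PAX family from 0.002 to 0.302. Low signal in replicate 1, where up to 84.7% of spots lay at or below background, limits every mean over 3 replicates.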
